A study of Homo sapiens with 45 samples.

Results

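CCRF-CEM is a human T cell acute lymphoblastic leukaemia (T-ALL) line, and the data described here compare CCRF-CEM cells kept in 1 uM BRM014 for 6 h (3 libraries) with CCRF-CEM cells kept in 0.01% DMSO, the solvent, for 6 h (3 libraries). These 6 of the 45 libraries of the series were chosen by their labels for line, compound and time, and not by any measured value. The labels name each one a biological replicate. No genome editing or other agent is named for this line. The series asks what the BAF chromatin remodelling complex does in T-ALL, by removing its subunits in another line and by inhibiting its motor in several lines. The T-ALL lines KOPT-K1 and TALL-1 were given the same treatments for the same 6 h, with 6 libraries each, and are used only to show where CCRF-CEM differed.

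BAF complexes, also called SWI/SNF, slide and evict nucleosomes with energy from an ATPase subunit, either SMARCA4 (BRG1) or SMARCA2 (BRM), and so keep enhancers open to transcription factors. BRM014 inhibits the ATPase activity of both. T-ALL cells are transformed thymocyte precursors, and they rely on lineage factors such as RUNX1, MYB, GATA3 and TAL1 and on NOTCH1 and MYC. CCRF-CEM is known to carry a chromosomal rearrangement that brings NKX2-5, a homeobox gene of heart development that thymocytes do not normally use, into the neighbourhood of BCL11B, a T cell gene, and a deletion that joins STIL to TAL1.

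Values are TPM, a relative transcript abundance: the reads of a gene divided by its length and scaled to a common total per library, so they are shares of a library's polyadenylated RNA and not amounts per cell. The BRM014 libraries held 23.5, 25.3 and 25.5 M assigned reads (M, 1e6), and the DMSO libraries 23.1, 23.2 and 20.7 M. All 15 T lineage markers were expressed, with a summed level of 3252.5 to 4013.8 TPM with BRM014 and 3597.9 to 3823 TPM with DMSO, and 3 of the 15 were called higher and 10 lower. Of 12 B cell markers 5 were expressed (CD79A, CD79B, VPREB1, IGLL1 and CD72), with sums of 111 to 141 TPM with BRM014 and 163 to 195 TPM with DMSO, while MS4A1, CD22, PAX5, EBF1 and BLK stayed under 0.1 TPM in all 6 libraries. Of the myeloid and natural killer markers CD68 and NKG7 alone were expressed, with natural killer sums of 32.1 to 37.3 TPM with BRM014 and 54.9 to 72.2 TPM with DMSO. The part of such cells in the results was not tested. Replicate 3 stood apart in both groups: of 10919 genes with at least 5 TPM in this line, 42 were lower and 4 higher by at least 1 on the log2 scale in replicate 3 of both groups, led by sterol synthesis genes (HMGCS1, LSS, MSMO1 and MVD) and MT1G. Deviations from the group means ran together between libraries of the same number (correlations of 0.119, 0.286 and 0.447). They also did so between BRM014 replicate 1 and DMSO replicate 2 (0.111) and between BRM014 replicate 2 and DMSO replicate 1 (0.159). The pairing of the numbers 1 and 2 is therefore not clear. A list whose number of calls moved by over 1.5 times when the number was used as a block is given both ways. In bulk RNA, fewer cells of a kind and less RNA per cell cannot be told apart.

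Inhibition of the BAF ATPases for 6 h changed the level of many genes, and most of the large changes were losses. Of 16241 genes tested, 8092 (49.8%) were called at a Benjamini-Hochberg adjusted p under 0.05 by limma, 4694 higher (28.9%) and 3398 lower (20.9%). With a change of at least 1 on the log2(TPM + 1) scale, 845 genes were called (5.2%), 270 higher (1.66%) and 575 lower (3.54%). These larger changes were 551 higher and 934 lower with a pseudocount of 0.1 in place of 1, and 617 higher and 1026 lower by limma-voom on recovered reads. The median over all genes was 0.05. Rescaling the libraries by the median ratio of their genes turned the balance of calls to 3648 higher and 4202 lower, while the larger changes stayed mostly losses (204 higher, 673 lower). All 3 BRM014 libraries lay beyond all 3 DMSO libraries in 8225 genes (50.6%). Changes below are log2(TPM + 1) differences, BRM014 minus DMSO, ± standard error, which understate the change of genes at low levels. A gene is said to have risen or fallen only where it passed that test. Counts of list members in the main fit are to be set beside the shares of all genes, 28.9% higher and 20.9% lower. With the replicate number as a block, 5580 of the 16241 genes were called higher and 4040 lower. List counts with the block belong beside those totals, and list counts after rescaling beside 3648 higher and 4202 lower.

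**Figure D1:**
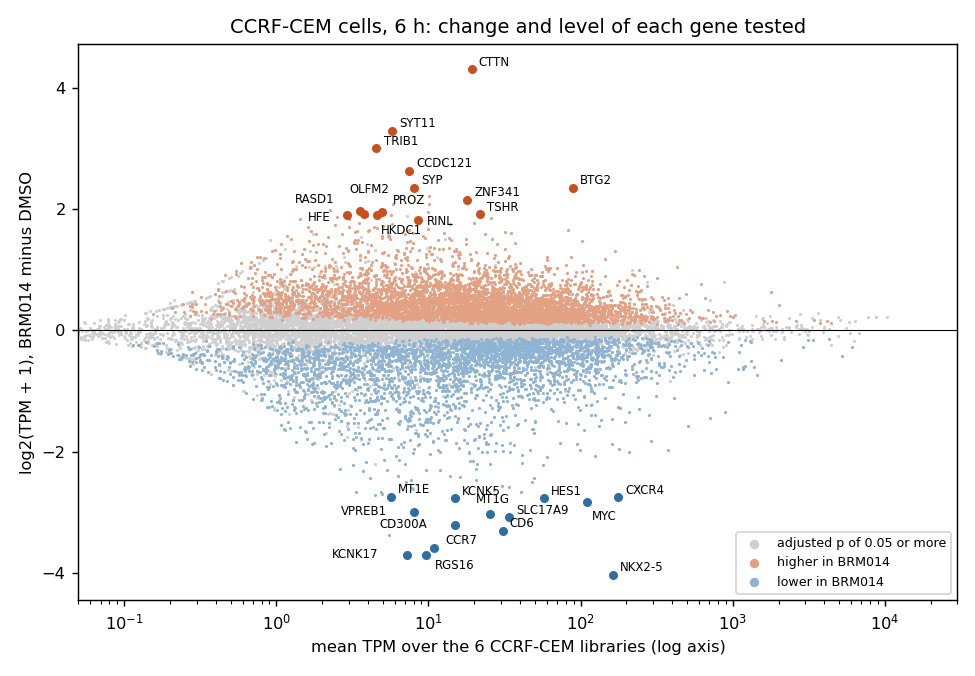
Change with BRM014 in CCRF-CEM against mean level, for tested genes with a mean of at least 0.05 TPM in this line. Each point is a gene, the x axis is the mean over the 6 libraries in TPM on a log scale and the y axis is the log2(TPM + 1) difference, BRM014 minus DMSO. Orange genes were called higher and blue ones lower at adjusted p under 0.05, and the 14 largest gains and 14 largest losses carry names, with CTTN at 4.31 and NKX2-5 at -4.03 at the ends.

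NKX2-5, the ectopic homeobox gene of this line, had the largest loss of the genes tested on the log2(TPM + 1) scale. It had 17.5, 19.2 and 16.6 TPM in the BRM014 libraries, against 315, 329.7 and 276 TPM in the DMSO libraries. The groups were far apart, and the change was -4.03 ± 0.07 (adjusted p = 1.9e-14). RGS16, which shortens signalling by G proteins behind chemokine receptors, had 0.383, 0.795 and 0.400 TPM in the BRM014 libraries, against 19.0, 20.2 and 17.1 TPM in the DMSO libraries (-3.70 ± 0.13, adjusted p = 2.9e-11). CCR7, the receptor that guides lymphocytes to lymph nodes, had 1.16, 0.593 and 0.716 TPM in the BRM014 libraries, against 22.6, 23.4 and 17.0 TPM in the DMSO libraries (-3.59 ± 0.13). CD6, a costimulatory receptor of T cells, had 4.07, 6.01 and 4.47 TPM in the BRM014 libraries, against 55.5, 62.8 and 51.6 TPM in the DMSO libraries (-3.31 ± 0.11). The groups of these genes did not overlap, which the ranking required.

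In the same ranking were the potassium channel genes KCNK17 (-3.70 ± 0.14) and KCNK5 (-2.77 ± 0.08), the inhibitory receptor CD300A (-3.21 ± 0.12), the vesicular nucleotide transporter SLC17A9 (-3.09 ± 0.11) and VPREB1, part of the surrogate light chain of early lymphocytes (-2.99 ± 0.12). MT1G and MT1E, metal-binding proteins of a family of near-identical copies whose reads may be split uncertainly, had changes of -3.03 ± 1.10 and -2.75 ± 0.41. MT1G had 4.78, 7.78 and 1.04 TPM with BRM014, against 60.9, 65.5 and 12.7 TPM with DMSO. Replicate 3 was the lowest of each group, and MT1G lost its call (adjusted p = 0.033) in 9 of 20 other ways of processing, among them without DMSO replicate 1 (-2.68) or 2 (-2.63) and without BRM014 replicate 1 (-3.18) or 3 (-2.43).

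Among abundant genes that fell by at least 1, IFITM1, a membrane protein that restricts viral entry and has close paralogues, had 337, 418 and 385 TPM in the BRM014 libraries, against 1083, 1168 and 878 TPM in the DMSO libraries (-1.45 ± 0.14). PTPRCAP, a partner of the phosphatase CD45, had 264, 292 and 214 TPM in the BRM014 libraries, against 847, 812 and 634 TPM in the DMSO libraries (-1.57 ± 0.10). SH2D1A, the adaptor of SLAM receptors, had 149.6, 169.8 and 136 TPM in the BRM014 libraries, against 622, 695 and 497 TPM in the DMSO libraries (-1.98 ± 0.10). None of these 3 genes overlapped between the groups, which the ranking required. ODC1, the first enzyme of polyamine synthesis and a known target of MYC, changed by -1.83 ± 0.11.

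On the log2(TPM + 1) scale the largest gain was CTTN, which encodes the actin-binding protein cortactin. Its level was 41.1, 41.2 and 30.2 TPM in the BRM014 libraries, against 1.14, 1.16 and 0.530 TPM in the DMSO libraries, a change of 4.31 ± 0.14 (adjusted p = 2.1e-11). SYT11, a regulator of vesicle traffic, had 13.7, 9.85 and 10.4 TPM in the BRM014 libraries, against 0.265, 0.403 and 0.0989 TPM in the DMSO libraries (3.29 ± 0.11). CTTN was low and SYT11 close to silent in the DMSO libraries, and both were well expressed in each BRM014 library. TRIB1, a pseudokinase that directs proteins to the ubiquitin ligase COP1, had 10.2, 9.85 and 6.59 TPM in the BRM014 libraries, against 0.206, 0.269 and 0.165 TPM in the DMSO libraries (3.01 ± 0.11). BTG2, an antiproliferative gene that also promotes shortening of mRNA tails, had 160.5, 140.1 and 147 TPM in the BRM014 libraries, against 29.3, 27.8 and 27.6 TPM in the DMSO libraries (2.36 ± 0.08). TSHR, the thyrotropin receptor, had 39.4, 40.0 and 26.0 TPM in the BRM014 libraries, against 9.25, 8.58 and 7.40 TPM in the DMSO libraries (1.92 ± 0.14). In all of these the lowest BRM014 library exceeded the highest DMSO library, which the ranking required. SYP (synaptophysin, 2.35 ± 0.16), OLFM2 (1.98 ± 0.22), RASD1, a small GTPase (1.93 ± 0.19), HFE, the haemochromatosis protein (1.90 ± 0.11), and HKDC1, a hexokinase relative (1.90 ± 0.15), followed. RASSF5, an abundant RAS effector that acts in lymphocyte adhesion, had 249, 231 and 243 TPM in the BRM014 libraries, against 97.7, 99.5 and 92.1 TPM in the DMSO libraries (1.31 ± 0.05).

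Transcription factors of T-ALL and of the T lineage mostly fell. Of 58 listed, 47 passed the filter on low values, and 33 of these fell (against 20.9% of all genes), 8 rose and 6 were not called, with a median of -0.59 against 0.05 for all genes. BCL11B, which commits thymocytes to the T lineage, had 6.00, 4.99 and 5.78 TPM in the BRM014 libraries, against 36.3, 37.1 and 32.9 TPM in the DMSO libraries (-2.47 ± 0.08, adjusted p = 2.1e-11). MYC, the growth regulator, had 23.9, 29.0 and 25.7 TPM in the BRM014 libraries, against 188, 224 and 166 TPM in the DMSO libraries (-2.83 ± 0.15, adjusted p = 1.7e-09). HHEX, a homeobox gene of early progenitors, had 3.81, 4.50 and 4.59 TPM in the BRM014 libraries, against 26.3, 38.4 and 19.7 TPM in the DMSO libraries (-2.41 ± 0.15). All 3 genes were separate between the groups.

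FLI1, an ETS family factor, had 6.32, 5.96 and 8.19 TPM in the BRM014 libraries, against 33.4, 41.1 and 30.7 TPM in the DMSO libraries (-2.21 ± 0.11). LMO2, the bridging protein of the TAL1 complex, had 0.766, 0.965 and 1.07 TPM in the BRM014 libraries, against 4.64, 5.41 and 4.91 TPM in the DMSO libraries (-1.63 ± 0.07), and LYL1, a close relative of TAL1, changed by -1.29 ± 0.10. GATA3, required for T cell development, had 21.0, 20.4 and 20.6 TPM in the BRM014 libraries, against 50.8, 53.6 and 49.8 TPM in the DMSO libraries (-1.27 ± 0.08). The BRM014 libraries of FLI1, LMO2 and GATA3 all lay below the DMSO libraries. MYCN, a paralogue of MYC, changed by -1.26 ± 0.11.

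Other core factors of the same programme moved little or the other way. TAL1 had 27.9, 27.1 and 24.5 TPM in the BRM014 libraries, against 13.0, 14.1 and 12.3 TPM in the DMSO libraries (0.96 ± 0.08, adjusted p = 1.1e-07), and its partner TCF12, an E protein, rose by 0.93 ± 0.05. STIL, the gene to which TAL1 is joined in this line and which was looked up after the TAL1 values were seen, had 28.3, 27.3 and 29.7 TPM in the BRM014 libraries, against 13.4, 15.0 and 14.4 TPM in the DMSO libraries (0.95 ± 0.07). RUNX1, which binds with CBFB, had 63.2, 61.9 and 72.3 TPM in the BRM014 libraries, against 60.0, 61.4 and 62.4 TPM in the DMSO libraries and was not called (adjusted p = 0.22). LEF1 had 224, 248 and 243 TPM in the BRM014 libraries, against 163, 193 and 196 TPM in the DMSO libraries and rose by 0.37 ± 0.07.

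MYB had 229, 260.2 and 197 TPM in the BRM014 libraries, against 278, 271 and 294 TPM in the DMSO libraries, with a change of -0.30 ± 0.09 (adjusted p = 0.0076), and it lost the call when CCRF-CEM was fitted alone and when replicate 3 was left out of both groups (-0.17). TCF7, the gene of the T cell factor TCF1, had 123, 119 and 107 TPM in the BRM014 libraries, against 130.5, 138 and 179.7 TPM in the DMSO libraries (adjusted p = 0.021). Its change of -0.34 ± 0.11 was -0.20 and not called without DMSO replicate 3, the highest library, and -0.28 and not called without BRM014 replicate 3. LMO1 was listed at 0 in all 6 libraries.

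**Figure D2:**
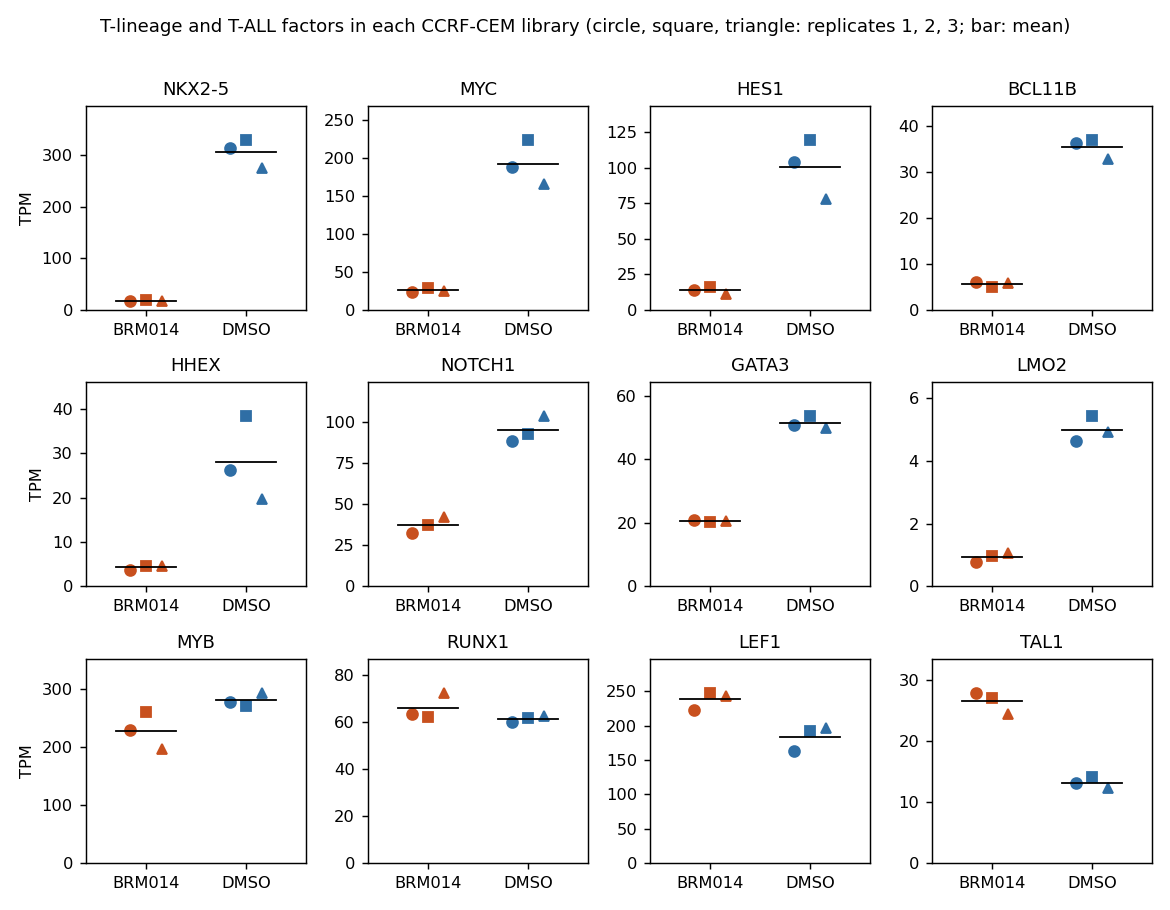
Levels of 12 T-ALL and T lineage genes in each CCRF-CEM library. Each symbol is a library (circle, square and triangle for replicates 1, 2 and 3), bars are group means, and the y axis is TPM from 0 on its own scale for each gene. NKX2-5, MYC, HES1, BCL11B, HHEX, NOTCH1, GATA3 and LMO2 are lower in each BRM014 library, MYB is lower by less, LEF1 and TAL1 are higher, and RUNX1 overlaps.

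The neighbourhoods of the rearranged genes were examined after these values were seen. NKX2-5 lies at chr5:173232109-173235206 and BCL11B at chr14:99169287-99272197 (RefSeq, GRCh38.p14). Distances are on the reference chromosomes and need not be those on the rearranged chromosome of this line. Only tested neighbours with a mean of at least 1 TPM in CCRF-CEM were examined. Within 1 Mb of NKX2-5, the nearest of these, BNIP1, 67.7 kb away, changed by 0.09 (adjusted p = 0.321). CREBRF at 92.8 kb rose by 0.41, ATP6V0E1 at 197 kb changed by -0.22 and ERGIC1 at 279 kb by -0.46, and CPEB4 at 653 kb rose by 1.14. DUSP1, a phosphatase of MAP kinases at 460.9 kb, fell by 0.72 on this scale, with 1.32, 0.898 and 1.27 TPM in the BRM014 libraries, against 2.48, 2.16 and 3.10 TPM in the DMSO libraries, levels at which log2(TPM + 1) understates a change. Near BCL11B, SETD3 at 126 kb changed by -0.42, CCNK at 209 kb by -0.04 (adjusted p = 0.473) and CCDC85C at 228 kb by -0.31. None of the protein-coding neighbours examined moved down by as much as 1 on the log2(TPM + 1) scale, whereas NKX2-5 and BCL11B fell by 4.03 and 2.47.

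NOTCH signalling is active in most T-ALL: a cleaved receptor enters the nucleus and switches on genes such as HES1, DTX1 and MYC. The receptors themselves fell. NOTCH1 had 32.7, 37.4 and 42.5 TPM in the BRM014 libraries, against 88.8, 92.7 and 104 TPM in the DMSO libraries (-1.32 ± 0.09), and NOTCH3 changed by -1.49 ± 0.15. Of 17 tested NOTCH targets, which include MYC and NOTCH3, 8 fell, 2 rose and 7 were not called, with a median of -0.56. HES1, the best known target, had 14.2, 16.1 and 11.1 TPM in the BRM014 libraries, against 104, 119.8 and 78.0 TPM in the DMSO libraries (-2.77 ± 0.14, adjusted p = 7.9e-10). DTX1, a ubiquitin ligase, changed by -1.19 ± 0.13. IL7R, a target that maintains survival, rose by 0.71 ± 0.13, with 31.9, 29.3 and 22.5 TPM in the BRM014 libraries, against 14.5, 14.2 and 21.6 TPM in the DMSO libraries, and the lowest BRM014 library of IL7R was only just above the highest DMSO library.

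Genes of the T cell receptor and its adaptors mostly fell, while the receptor chain genes CD3G and CD247 rose. Of 40 tested, 27 fell and 8 rose, with a median of -0.41. SASH3, an adaptor of lymphocyte activation, had 72.1, 76.8 and 55.7 TPM in the BRM014 libraries, against 409.6, 423 and 395 TPM in the DMSO libraries (-2.58 ± 0.10). The adaptors GRAP2 (-2.06 ± 0.07) and SIT1 (-2.01 ± 0.07) fell as well. In contrast CD3G had 410.5, 399 and 413 TPM in the BRM014 libraries, against 212, 219.8 and 243 TPM in the DMSO libraries (0.86 ± 0.05), and CD247, the zeta chain, had 151, 155 and 149 TPM in the BRM014 libraries, against 83.7, 78.4 and 80.8 TPM in the DMSO libraries (0.90 ± 0.05). CD3D changed by -0.19 ± 0.07 (adjusted p = 0.045).

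T cell surface molecules followed the same direction, with 21 of 37 tested lower, 3 higher and a median of -0.59. CD44, the hyaluronan receptor, had 13.1, 16.2 and 14.8 TPM in the BRM014 libraries, against 82.5, 98.6 and 71.0 TPM in the DMSO libraries (-2.43 ± 0.12). CD82 (-1.98 ± 0.16), the costimulatory receptor CD28 (-1.80 ± 0.18) and the adhesion molecule CD2 (-1.52 ± 0.16) fell, as did CD5 (-1.16 ± 0.08). CD38, an ectoenzyme of activated and immature lymphocytes, was the strongest exception: it had 151, 153 and 149 TPM in the BRM014 libraries, against 56.9, 61.5 and 44.5 TPM in the DMSO libraries (1.47 ± 0.11). SLAMF6 rose by 1.15 ± 0.12. Among 16 cortical thymocyte genes 6 fell and 3 rose. CD1E (-1.54 ± 0.33) and RAG1, a subunit of the recombinase of antigen receptor genes (-0.85 ± 0.11), were among those that fell. CD4 changed by 0.30 ± 0.17 and was not called (adjusted p = 0.17), but it was with the replicate number as a block (adjusted p = 0.0346), without BRM014 replicate 3 (0.55, adjusted p = 0.00276) and without replicate 3 of both groups (0.47, adjusted p = 0.0111).

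Chemokine receptors and homing genes had 14 of 24 tested lower and 1 higher, CCR4 (0.71 ± 0.19), with a median of -0.49. Beside CCR7, the receptor CXCR4, which holds leukaemia cells in the marrow niche, had 43.8, 39.6 and 52.4 TPM in the BRM014 libraries, against 298, 318 and 313 TPM in the DMSO libraries (-2.76 ± 0.10, adjusted p = 3.7e-11). CCR9, the gut-homing receptor of thymocytes, changed by -2.67 ± 0.13 and PLXND1 by -1.92 ± 0.06. The integrin chains ITGAL (-1.71 ± 0.08) and ITGA4 (-1.64 ± 0.14) fell too. CXCR4 did not overlap between the groups, which the ranking of the largest losses required.

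The GIMAP genes, a cluster of lymphocyte GTPases on chromosome 7, fell as a group: 6 of 7 tested fell, with a median of -1.63. GIMAP2 had 15.2, 14.9 and 12.7 TPM in the BRM014 libraries, against 73.1, 72.5 and 59.9 TPM in the DMSO libraries (-2.18 ± 0.10). GIMAP6 had 12.5, 13.6 and 12.5 TPM in the BRM014 libraries, against 61.6, 62.5 and 42.4 TPM in the DMSO libraries (-2.0 ± 0.13). GIMAP5, which shares exons with a read-through transcript of GIMAP1, had 5.77, 6.51 and 6.44 TPM in the BRM014 libraries, against 24.0, 26.8 and 15.0 TPM in the DMSO libraries (-1.63 ± 0.16). GIMAP7 (-1.81 ± 0.16), GIMAP1 (-1.08 ± 0.20) and GIMAP8 (-0.69 ± 0.14) fell, while GIMAP4 changed by -0.11 ± 0.13 and was not called. The drop was thus not the same along the cluster. The 250 bases before the RefSeq start of GIMAP5 (chr7:150737168-150737417, + strand) and GIMAP6 (chr7:150632386-150632635, - strand, both GRCh38.p14) are shown because both genes fell and each window holds a marked motif. Capitals mark only the ETS motif AGGAAGTG and the AP-1 motif TGANTCA. AGGAAGTG is in GIMAP5, 65 bases before the start, and TGACTCA is in GIMAP6, 28 bases before it. The GIMAP5 window also holds the letters of the NKX2-5 motif AAGTGG, searched below, which are left in lower case.
GIMAP5: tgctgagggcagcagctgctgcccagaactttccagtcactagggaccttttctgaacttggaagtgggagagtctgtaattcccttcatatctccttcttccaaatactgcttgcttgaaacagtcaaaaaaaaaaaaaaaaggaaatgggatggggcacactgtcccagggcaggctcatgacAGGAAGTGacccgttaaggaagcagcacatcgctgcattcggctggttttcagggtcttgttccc
GIMAP6: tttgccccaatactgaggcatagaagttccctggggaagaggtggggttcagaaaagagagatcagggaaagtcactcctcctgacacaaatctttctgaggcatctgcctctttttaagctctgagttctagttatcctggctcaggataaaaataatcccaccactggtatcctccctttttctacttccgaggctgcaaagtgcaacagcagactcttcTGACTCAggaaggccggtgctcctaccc
Searched on both strands from 250 bases before to 50 after the start, AGGAAGTG was in 3 of the 7 GIMAP promoters (GIMAP4, GIMAP5 and GIMAP6) and TGANTCA in 1. GIMAP4, which was not called, thus also holds the ETS motif. Among 10025 tested protein-coding genes with a promoter sequence, AGGAAGTG was in 6.06% of the 363 that fell by at least 1 and 2.14% of the 140 that rose by at least 1, compared with 3.83% of all. TGANTCA was in 6.89% of those that fell and 0.714% of those that rose, against 4.3% of all. CCGGAAG, the ETS motif of housekeeping promoters, was in 4.96% of those that fell and 14.3% of those that rose, against 20.1% of all. The other 5 motifs searched are given as the share of fallen, risen and all genes, in that order. They were 11.8%, 22.1% and 15.3% for the NKX2-5 motif AAGTGG, which can overlap AGGAAGTG, and 13.2%, 5.71% and 10.3% for the MYC E-box CACGTG. They were 10.2%, 9.29% and 9.63% for the RUNX motif TGTGGT, 5.79%, 5.0% and 4.94% for the GATA motif AGATAA, and 1.65%, 4.29% and 2.72% for the E2F motif TTTCCCGC. No share was tested. These shares describe letters in a window and not binding.

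Of 26 AP-1 and immediate early genes, which respond within minutes to signals at the membrane, 18 passed the filter on low values. Of those 12 fell, none rose and 6 were not called, with a median of -0.71. FOS (-0.13 ± 0.20, adjusted p = 0.64) and EGR1 (-0.26 ± 0.17, adjusted p = 0.23), the classic members, were among those not called. JUN, a component of AP-1, had 9.62, 10.0 and 10.5 TPM in the BRM014 libraries, against 76.5, 86.6 and 49.2 TPM in the DMSO libraries (-2.66 ± 0.17, adjusted p = 1e-08). BATF3 (-1.94 ± 0.14), BATF (-1.78 ± 0.16) and ATF3 (-1.11 ± 0.16), which pair with JUN, fell. The feedback phosphatases of MAP kinases DUSP2 (-1.40 ± 0.11) and DUSP6 (-1.28 ± 0.25) fell with them.

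Signalling lists moved in mixed directions. Among 41 regulators of RAS and PI3K signalling 21 fell and 11 rose, with PIK3CD, the lymphocyte PI3K catalytic subunit, at -1.80 ± 0.08. Among 37 cytokine receptors, JAKs, STATs and SOCS genes 15 rose (40.5%, against 28.9% of all genes) and 10 fell (27.0%, against 20.9%). IL2RB (-1.91 ± 0.09) and its kinase JAK3 (-1.65 ± 0.16) fell, whereas IL6ST, the shared receptor chain of the IL-6 family, rose by 1.17 ± 0.08 and the kinase PIM2 by 0.96 ± 0.12. SOCS1, a feedback inhibitor of JAKs, changed by -0.20 ± 0.16 (adjusted p = 0.33) and was called with the block (adjusted p = 0.0132). Of 24 NF-kB factors and targets 11 fell and 6 rose. The cytokine LTB (-1.86 ± 0.20) and the adhesion ligand ICAM1 (-1.51 ± 0.13) fell, and CFLAR (1.45 ± 0.10), TNFAIP3 (1.03 ± 0.07), REL (0.96 ± 0.06) and NFKB2 (0.92 ± 0.11) rose. PTPN6, the phosphatase SHP-1, changed by -1.50 ± 0.11.

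Genes that build ribosomes, many of them known MYC targets, fell as a group: 33 of 43 tested fell and none rose, with a median of -0.34. DDX21, a helicase of rRNA processing, had 134, 153 and 167 TPM in the BRM014 libraries, against 308, 353 and 314 TPM in the DMSO libraries (-1.10 ± 0.09), and NOLC1, a nucleolar chaperone, had 176, 191 and 231 TPM in the BRM014 libraries, against 386, 425 and 457 TPM in the DMSO libraries (-1.09 ± 0.09). LYAR (-1.0 ± 0.10) and DKC1, the pseudouridine synthase (-0.93 ± 0.08), fell too. Neither DDX21 nor NOLC1 overlapped between groups. Cytosolic ribosomal protein mRNAs moved little: 5 of 52 rose and 3 fell, none by more than 0.28. That count was 14 and 8 with the block, and 0 and 6 after median-ratio rescaling.

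More DNA replication genes rose than fell at 6 h. Of 45 DNA replication genes 25 rose (55.6%, against 28.9% of all genes) and 2 fell (4.44%, against 20.9%), with a median of 0.31. With the block 35 rose and 5 fell. MCM5, of the replicative helicase, had 303, 278 and 336 TPM in the BRM014 libraries, against 187, 167 and 225 TPM in the DMSO libraries (0.67 ± 0.11), and its highest DMSO library, replicate 3, stayed below its lowest BRM014 library. DTL, a licensing regulator, rose by 0.72 ± 0.15. Of 40 mitotic genes 14 rose (35%, against 28.9% of all genes) and 4 fell (10%, against 20.9%). This was 25 and 6 with the block and 7 and 3 without replicate 3 of both groups. In the G1 machinery CDK6 had 62.2, 58.8 and 71.9 TPM in the BRM014 libraries, against 160.3, 173 and 177 TPM in the DMSO libraries (-1.39 ± 0.07), whereas CCND3, the D cyclin of T-ALL, had 787, 719 and 835 TPM in the BRM014 libraries, against 567, 529.8 and 516 TPM in the DMSO libraries (0.54 ± 0.09) and CCNE2 rose by 0.85 ± 0.22. CDKN1A, the p21 inhibitor, changed by -0.85 ± 0.28 with overlapping groups, and its call was lost without DMSO replicate 1 (-0.63) or 2 (-0.59) or BRM014 replicate 3 (-0.77).

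Apoptosis genes were split, with 11 of 24 higher and 10 lower. PMAIP1 (-1.70 ± 0.14) and BBC3 (-0.90 ± 0.17), which promote cell death, fell, as did the protective BCL2A1 (-1.36 ± 0.24) and BCL2 (-0.51 ± 0.07), and BNIP3 rose by 0.98 ± 0.12. Of 29 genes linked to p53 or to growth arrest, BTG2 among them, 5 rose (17.2%, against 28.9% of all genes) and 8 fell (27.6%, against 20.9%). With the block 9 rose and 11 fell. KLF10 (-1.55 ± 0.13), TXNIP (-1.54 ± 0.14) and PLK3 (-1.46 ± 0.15) were lower.

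**Figure D3:**
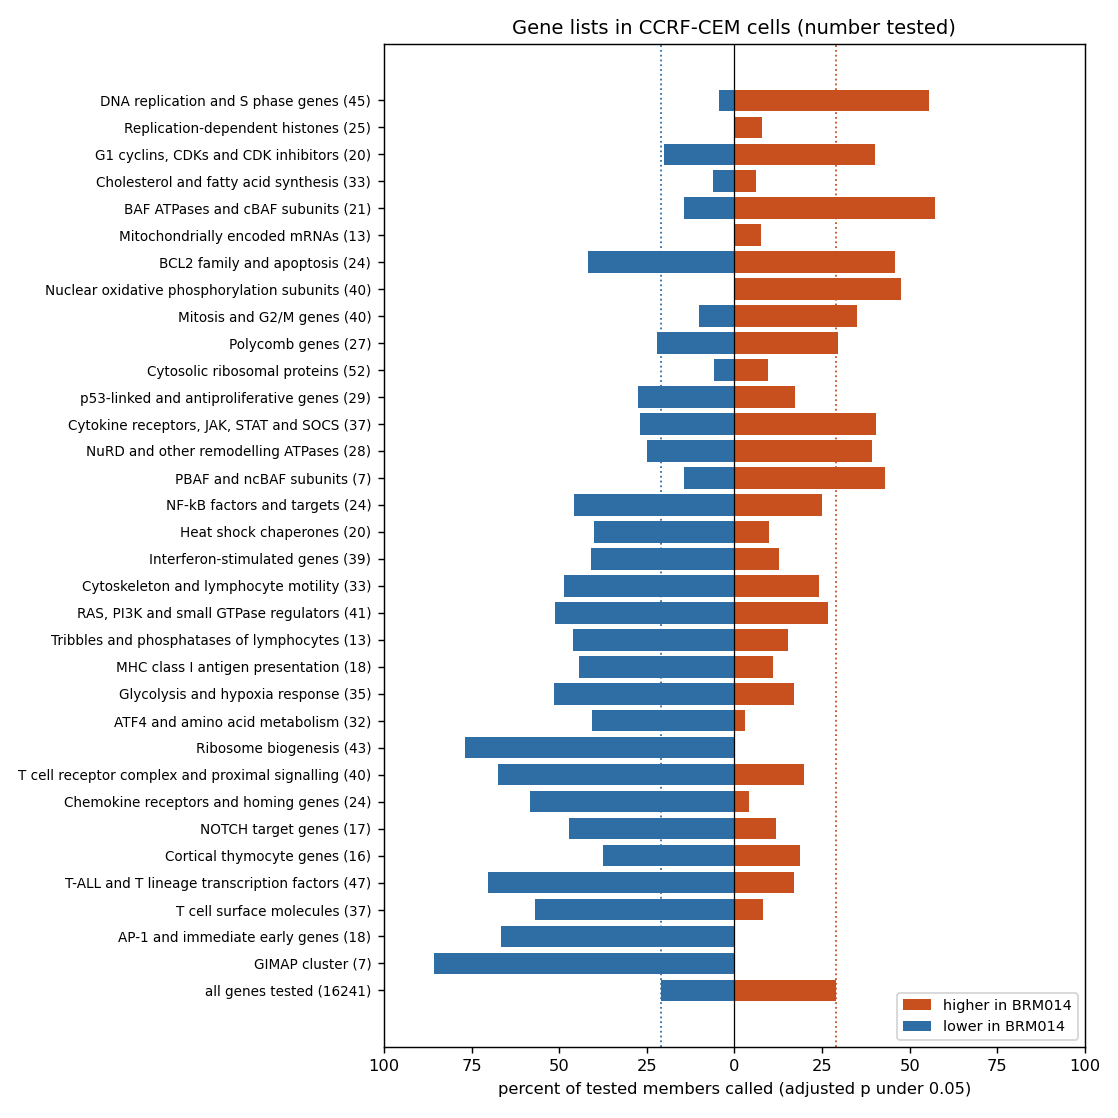
Percent of tested members of each gene list called higher (orange, to the right) and lower (blue, to the left) with BRM014 in CCRF-CEM at adjusted p under 0.05, with the number tested in brackets. Dotted lines mark the shares over all genes tested, 28.9% higher and 20.9% lower. The GIMAP cluster, ribosome biogenesis and T lineage factor lists have the largest shares of lower members (85.7%, 76.7% and 70.2%), and the canonical BAF and replication lists the largest shares of higher members (57.1% and 55.6%).

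Metabolic lists separated by pathway. Of 35 glycolysis and hypoxia genes 18 fell and 6 rose, including VEGFA (-1.79 ± 0.13), the glucose transporter SLC2A3 (-1.57 ± 0.19), HK2 (-1.09 ± 0.16) and LDHA (-0.64 ± 0.16), with PFKFB4 higher (1.13 ± 0.16). Of 40 nuclear genes for oxidative phosphorylation 19 rose and none fell (median 0.19), for example SDHA (0.64 ± 0.07). This was 29 and 1 with the block and 12 and 0 after rescaling. Of 32 genes of the ATF4 and amino acid response 13 fell and 1 rose, ASNS, asparagine synthetase (0.92 ± 0.19), or 20 and 1 with the block. The transporter SLC1A5 changed by -1.46 ± 0.12 and XBP1 by -1.51 ± 0.25. Of 20 chaperone genes 8 fell and 2 rose, led by HSPA5, the chaperone of the endoplasmic reticulum (-1.39 ± 0.25).

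In cholesterol and fatty acid genes the count of calls moved with the pairing of libraries, and replicate 3 carried low levels in both groups. FDPS, farnesyl diphosphate synthase, had 1460.1, 1499 and 461 TPM in the BRM014 libraries, against 741, 744 and 343 TPM in the DMSO libraries. MVD, of the same pathway, had 383, 425 and 81.4 TPM in the BRM014 libraries, against 190.3, 189 and 45.9 TPM in the DMSO libraries. In both genes every BRM014 library was above the DMSO library of its own number, but BRM014 replicate 3 was below DMSO replicates 1 and 2 of MVD and FDPS. Without the block the adjusted p was 0.087 for FDPS and 0.15 for MVD, and with it 0.00028 for FDPS and 1.1e-06 for MVD. Over the list 2 of 33 rose and 2 fell without the block, against 21 and 6 with it. Leaving out DMSO replicate 3 gave 1 and 7 with a median of -0.22, leaving out BRM014 replicate 3 gave 14 and 2 with a median of 0.64, and leaving out both gave 16 and 7.

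Taken pair by pair, 22 of the 33 were higher in BRM014 in all 3 pairs, 6 were lower in all 3 and 5 were mixed, while 11722 of the 16241 genes tested had the same sign in all 3 pairs. The medians of the pair differences were 0.19, 0.23 and 0.19. Of the genes called both ways, PMVK had 161, 164 and 134 TPM in the BRM014 libraries, against 83.4, 93.0 and 81.0 TPM in the DMSO libraries (0.82 ± 0.09) and FADS1, a fatty acid desaturase, had 76.7, 71.4 and 52.9 TPM in the BRM014 libraries, against 219, 212 and 115 TPM in the DMSO libraries (-1.39 ± 0.20). HMGCS1 had 290.3, 399.5 and 52.6 TPM in the BRM014 libraries, against 452, 584 and 46.5 TPM in the DMSO libraries, which was lower with BRM014 in pairs 1 and 2 and higher in pair 3. What set replicate 3 apart was not tested.

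**Figure D4:**
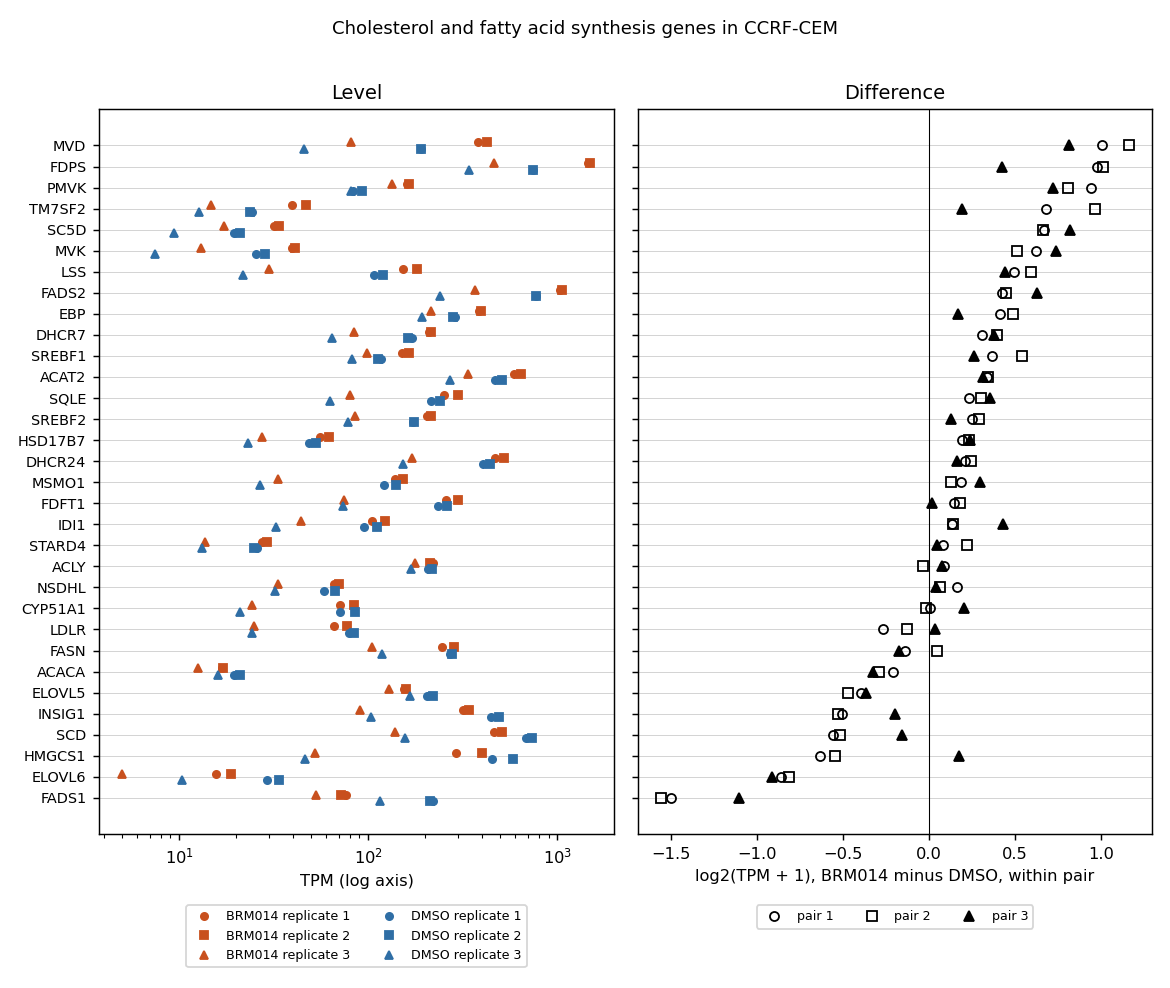
Levels of 32 of the 33 cholesterol and fatty acid genes in CCRF-CEM by replicate number. The left panel gives the level of each library in TPM on a log axis, and the right panel the log2(TPM + 1) difference, BRM014 minus DMSO, between libraries of the same number. Triangles, replicate 3, lie at lower levels than the other symbols of their group for most genes, yet the 3 pair differences of MVD and FDPS lie on the higher side and those of FADS1 on the lower side.

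Genes of immune recognition fell in part. Of 18 MHC class I presentation genes 8 fell and 2 rose, or 13 and 2 with the block, with PSMB10, an immunoproteasome subunit, at -1.23 ± 0.08 and HLA-E at 0.79 ± 0.09. Of 39 interferon-stimulated genes 16 fell and 5 rose, with IFIH1, a sensor of viral RNA, at -0.96 ± 0.08 and RSAD2 at 1.25 ± 0.15. The list median of -0.11 was close to 0. Of 33 cytoskeletal and motility genes 16 fell and 8 rose: ACTN1 (-1.51 ± 0.10) and FLNA (-1.34 ± 0.11), which cross-link actin, fell, in the opposite direction to CTTN. After rescaling these counts were 17 and 4.

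More genes of the inhibited complex rose than fell, as was also so over all genes tested. Of 21 ATPase and canonical BAF subunit genes 12 rose (57.1%, against 28.9% of all genes) and 3 fell (14.3%, against 20.9%), with a median of 0.21. SMARCA4 had 235, 231 and 236 TPM in the BRM014 libraries, against 172, 177 and 187 TPM in the DMSO libraries (0.39 ± 0.05, adjusted p = 6e-06), and SMARCA2 had 13.7, 14.3 and 12.1 TPM in the BRM014 libraries, against 9.50, 10.3 and 9.38 TPM in the DMSO libraries (0.42 ± 0.08). ARID1A, the DNA-binding subunit often mutated in cancer, had 155, 153 and 139 TPM in the BRM014 libraries, against 93.2, 96.2 and 88.3 TPM in the DMSO libraries (0.68 ± 0.05), and its paralogue ARID1B changed by 0.21 ± 0.05. All 3 genes with values given were higher in each BRM014 library than in any DMSO library. DPF2 rose by 0.68 ± 0.05 and DPF3 changed by -0.56 ± 0.12.

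BICRAL, a subunit of the non-canonical complex, had 32.5, 31.0 and 30.3 TPM in the BRM014 libraries, against 7.63, 8.65 and 9.10 TPM in the DMSO libraries (1.77 ± 0.06), while its partner BRD9 changed by -0.34 ± 0.09. Of 28 NuRD and other remodelling genes 11 rose (39.3%, against 28.9% of all genes) and 7 fell (25%, against 20.9%), but 6 and 11 after rescaling. CHD4, the ATPase of the repressive NuRD complex, had 53.1, 47.8 and 112 TPM in the BRM014 libraries, against 210.2, 219.5 and 317 TPM in the DMSO libraries (-1.88 ± 0.24, adjusted p = 1.7e-05), with replicate 3 the highest library of each group and no overlap. CHD2 rose by 0.91 ± 0.06. Of 27 Polycomb genes 8 rose (29.6%) and 6 fell (22.2%), close to the shares of all genes (28.9% and 20.9%). EPOP, an accessory protein of PRC2, changed by -2.08 ± 0.13.

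The response of CCRF-CEM was compared with those of KOPT-K1 and TALL-1 by testing the difference of the BRM014 effects, since each line has its own DMSO libraries. The effects differed from KOPT-K1 for 2978 genes (18.3%), 1400 higher (8.62%) and 1578 lower (9.72%) in CCRF-CEM, and from TALL-1 for 3311 genes (20.4%), 1711 higher (10.5%) and 1600 lower (9.85%). With the replicate number as a block these counts were 5039 and 5337. Both differences were called in the same direction for 499 genes higher in CCRF-CEM (3.07%) and 696 lower (4.29%). Of the 575 genes that fell by at least 1 in CCRF-CEM, 280 (48.7%) were called lower in both other lines at any size and 113 (19.7%) in neither, and for 89 of the 113 both differences were called. The 575 include 34 that averaged at least 5 TPM in CCRF-CEM and under 1 TPM in both other lines. A loss of that size could hardly be seen there. How many of the 113, or of the 696, were that low in the other lines was not counted. Of all genes tested, 15.2% were called lower in KOPT-K1 and 19.3% in TALL-1, and 22.9% and 26.6% higher. Of the 270 gains, 175 (64.8%) were called higher in both other lines and 40 (14.8%) in neither. By size, 181 losses of at least 1 were shared with KOPT-K1 (31.5% of those of CCRF-CEM, 48.3% of those of KOPT-K1) and 216 with TALL-1 (37.6% and 35.4%), where such losses made up 2.31% of all genes in KOPT-K1 and 3.76% in TALL-1.

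NKX2-5 and HHEX were at or near 0 in the other lines. NKX2-5 averaged 17.8 ± 1.29 TPM with BRM014 and 307 ± 27.8 TPM with DMSO in CCRF-CEM (SD, n = 3 each), with means of 0.0148 and 0.0163 TPM in the BRM014 and DMSO groups of KOPT-K1 and 0.0138 and 0 TPM in those of TALL-1. MYC was expressed in all 3 lines. It averaged 26.2 ± 2.62 TPM with BRM014 and 193 ± 29.4 TPM with DMSO in CCRF-CEM, 188 ± 17.8 TPM with BRM014 and 186 ± 23.7 TPM with DMSO in KOPT-K1, and 37.0 ± 6.33 TPM with BRM014 and 111 ± 19.0 TPM with DMSO in TALL-1 (SD, n = 3 each). The MYC effect in CCRF-CEM minus that in KOPT-K1 was -2.84 ± 0.21 (adjusted p = 3.9e-07), and minus that in TALL-1 it was -1.27 ± 0.21 (adjusted p = 0.00053). The ribosome biogenesis list, with a median of -0.34 in CCRF-CEM, had medians of -0.02 in KOPT-K1 and -0.18 in TALL-1, and the effect was lower in CCRF-CEM for 30 of its 43 genes against KOPT-K1 and for 15 against TALL-1.

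HES1 averaged 13.8 ± 2.52 TPM with BRM014 and 101 ± 21.1 TPM with DMSO in CCRF-CEM, 19.7 ± 1.62 TPM with BRM014 and 21.2 ± 2.36 TPM with DMSO in KOPT-K1, and 56.0 ± 2.2 TPM with BRM014 and 37.6 ± 1.46 TPM with DMSO in TALL-1. It thus fell in CCRF-CEM, changed by -0.10 in KOPT-K1 and rose by 0.56 in TALL-1. The NOTCH1 effect itself was -1.32 ± 0.09 in CCRF-CEM, -1.42 in KOPT-K1 and -3.66 in TALL-1, and it was not called different from KOPT-K1 (adjusted p = 0.68). The levels of NOTCH1, BCL11B, FLI1, TCF7 and MYB in the other lines are not given here, and log2(TPM + 1) understates changes at low levels. On that scale BCL11B fell more in CCRF-CEM (-2.47) than in KOPT-K1 (-1.38, difference adjusted p = 1.2e-05) and TALL-1 (-1.26, difference adjusted p = 3.1e-06). FLI1 changed by -2.21 in CCRF-CEM, -0.26 in KOPT-K1 and -1.38 in TALL-1. TCF7 went the other way: its change of -0.34 in CCRF-CEM was smaller than those in KOPT-K1 (-1.02, difference adjusted p = 0.0091) and TALL-1 (-1.94, difference adjusted p = 5.5e-06). MYB changed by -0.30 in CCRF-CEM and rose by 0.81 in KOPT-K1 and 1.0 in TALL-1. TAL1 was at 2.54 and 2.66 TPM with BRM014 and DMSO in KOPT-K1 and under 0.01 TPM in TALL-1, so its rise could be compared only at low levels.

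BTG2 rose in CCRF-CEM (2.36) and TALL-1 (3.16) and changed by -0.09 in KOPT-K1 (difference from KOPT-K1 2.45 ± 0.12, adjusted p = 1.1e-08). CTTN rose in all 3 lines, by 4.31 in CCRF-CEM, 2.65 in KOPT-K1 and 1.39 in TALL-1, which had 58.4 ± 0.854 TPM with BRM014 and 21.7 ± 0.930 TPM with DMSO. CXCR4 fell in all 3 lines, with changes of -2.76 ± 0.10 in CCRF-CEM against -1.80 in KOPT-K1 and -1.59 in TALL-1 (difference adjusted p = 0.00024 and 2.8e-05). The replication list, with 25 of 45 higher in CCRF-CEM, had a higher effect in CCRF-CEM than in TALL-1 for 18 genes and than in KOPT-K1 for none.

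**Figure D5:**
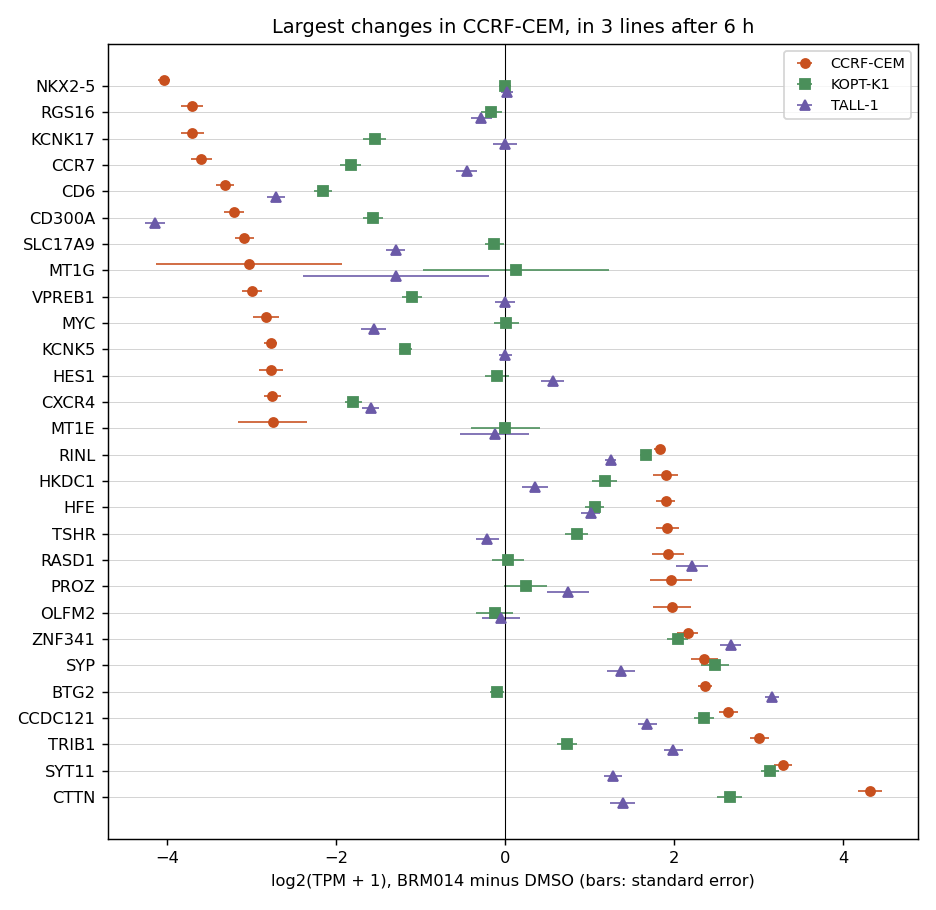
Effects of BRM014 in CCRF-CEM (circles), KOPT-K1 (squares) and TALL-1 (triangles) for the 14 largest losses and 14 largest gains of CCRF-CEM. The x axis is the log2(TPM + 1) difference, BRM014 minus DMSO, and bars are standard errors. MYC sits at -2.83 in CCRF-CEM against 0.01 in KOPT-K1 and -1.55 in TALL-1, and CTTN and CXCR4 lie on the same side of 0 in all 3 lines.

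A set of 161 genes averaged at least 5 TPM in CCRF-CEM and under 1 TPM in both KOPT-K1 and TALL-1, each mean taken over the BRM014 and DMSO libraries. Of these 78 fell (48.4%), 34 by at least 1 (21.1%), and 28 rose (17.4%), 5 by at least 1 (3.11%). Of all 10919 genes with at least 5 TPM in CCRF-CEM, 22.5% fell, 3.44% by at least 1, and 34.1% rose, 1.46% by at least 1. A gene that changed could enter or miss the set through the group where it was high, so the counts describe the set and support nothing. NKX2-5, RGS16, VPREB1, HHEX and MT1E belonged to it, although VPREB1 averaged 0.118 and 1.42 TPM with BRM014 and DMSO in KOPT-K1, and so did DDIT4L, an inhibitor of mTOR signalling (-2.2 ± 0.08), and the potassium channel gene KCNK6 (-1.89 ± 0.12), both picked after their values were seen. COBLL1 (1.56 ± 0.08) and ST3GAL6, a sialyltransferase (1.07 ± 0.13), also picked so, belonged to it and rose.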

How the data were processed

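Polyadenylated RNA of CCRF-CEM cells was sequenced from 3 libraries with BRM014 and 3 with DMSO, made with a directional kit per the labels. The authors deposited a table of TPM values (reads per gene length, scaled to 1 total per library) for the lines CCRF-CEM, KOPT-K1 and TALL-1. The submitters' processing notes name HISAT2 2.2.1, featureCounts 2.0.3, DESeq2 1.38.2 and the build hg38. The strand setting of the counting is not given in the sources used here, so genes that overlap others on the opposite strand are uncertain, as are near-identical copies such as histones and metallothioneins. Multiplied by gene length, 100% of the deposited TPM values gave whole reads within 0.01, with 19.7 to 27.0 M reads (M, 1e6) over 18 libraries.

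Of 38557 genes in the table, the 16241 that reached 1 TPM in 3 or more of the 18 libraries were tested on log2(TPM + 1) with limma 3.58.1 in R 4.3.3 (trend and robust), in 1 fit over the 18 libraries of the 3 lines, with Benjamini-Hochberg adjustment over all genes tested and a threshold of 0.05. A change of at least 1 on the log2 scale was a second rule. Differences between lines were contrasts of the 2 effects. The deposited values are TPM, so a test of recovered reads (limma-voom, 8126 genes called) was an alternative only. The procedure was tested on simulated data with independent libraries. These hold no shift of replicate 3 shared by both groups, so that test does not cover it. Labels name biological replicates but do not say whether these came from separate cultures. The p-values therefore measure the spread between these samples, which may be technical.

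Same-numbered CCRF-CEM libraries deviated together with correlations of 0.119, 0.286 and 0.447, each over 0.1. Those of KOPT-K1 (0.106, 0.042, 0.065) and TALL-1 (0.033, 0.090, 0.173) did not pass for all 3 pairs. In CCRF-CEM, BRM014 replicate 1 with DMSO replicate 2 (0.111) and BRM014 replicate 2 with DMSO replicate 1 (0.159) also passed 0.1. The pairing of the numbers 1 and 2 is therefore not clear. The test was run without a block, and the blocked fit was an alternative.

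The genes to describe were the 14 largest increases and 14 largest decreases among called protein-coding genes whose higher group averaged 5 TPM or more and whose groups did not overlap, the 6 most abundant in each group, the 6 largest differences between lines in each direction, and up to 4 members of each list, with a fixed set of leukaemia factors. The samples and lists were chosen with earlier results of these data known. Some genes the rule picks are not reported here. Named outside that rule, after their values were seen, were ASNS, CCND3, CCR4, CD2, CD247, CD28, CD38, CD3D, CD3G, CD5, COBLL1, DDIT4L, DTX1, EGR1, FDPS, FLI1, FOS, GIMAP1, GIMAP4, GIMAP8, HK2, HMGCS1, ITGA4, ITGAL, KCNK6, LDHA, LYL1, MVD, MYCN, NFKB2, PFKFB4, PIM2, REL, SLAMF6, ST3GAL6, STIL, TCF12 and TNFAIP3. Symbols were matched to RefSeq (GRCh38.p14) for positions and promoters: 35645 of 38557 matched by symbol or synonym.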

Additional observations from a re-analysis of the deposited data

Results flagged for a closer look

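The BRM014 effect differed between CCRF-CEM and the other lines, by limma's test of the difference, for 2978 genes against KOPT-K1 and 3311 genes against TALL-1. The values that follow are the effect in CCRF-CEM minus that in the other line, on the log2(TPM + 1) scale.

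Among genes lost in CCRF-CEM, NKX2-5 differed by -4.03 from KOPT-K1 and by -4.05 from TALL-1, and RGS16 by -3.54 and -3.42. KCNK17 differed from TALL-1 by -3.70, CCR7 by -3.14 and HES1 by -3.33. RGS16 averaged 0 and 0.119 TPM with BRM014 and DMSO in KOPT-K1 and 0.214 and 0.495 TPM in TALL-1, where KCNK17 was at 0 and CCR7 averaged 0.191 and 0.635 TPM. NKX2-5 was near 0 in both lines. No loss of that size could be seen at these levels, so these differences of NKX2-5, RGS16, KCNK17 and CCR7 restate the change in CCRF-CEM. SLC17A9 differed from KOPT-K1 by -2.96 and MYC by -2.84. SLC17A9 averaged 0 and 0.0938 TPM with BRM014 and DMSO in KOPT-K1, and limma-voom on recovered reads gave a difference of -0.60 that was not called.

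BHLHE23, a transcription factor gene, differed from KOPT-K1 by -3.47: it changed by -2.31 ± 0.21 in CCRF-CEM and by 1.16 in KOPT-K1. LPAR6, a receptor for lysophosphatidic acid, differed by -2.95, with -1.85 ± 0.12 in CCRF-CEM and 1.10 in KOPT-K1. ABLIM1, an actin-binding protein, differed from TALL-1 by -3.0, with changes of 0.04 ± 0.12 in CCRF-CEM and 3.04 in TALL-1.

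In the other direction, CTTN differed from TALL-1 by 2.92 and BTG2 from KOPT-K1 by 2.45. RASAL1, a RAS inhibitor, differed by 2.36 from KOPT-K1 and by 3.23 from TALL-1, with 1.59 ± 0.191 TPM with BRM014 and 1.36 ± 0.207 TPM with DMSO in CCRF-CEM (SD, n = 3 each) and larger DMSO levels in the other lines. OSM (2.98), SCEL (2.98), MAL (2.50) and VIPR2 (2.43) differed from KOPT-K1, and ACP5 (3.69), MMP9 (2.93), CCR8 (2.78) and PDGFRB (2.74) from TALL-1. The CCR8 difference was 2.14 and not called by limma-voom on recovered reads (adjusted p = 0.0877). These genes fell in the other line, while in CCRF-CEM their changes were -1.37, 0.01, -0.35, 0.84, 0.18, 0.02, -0.28 and -0.01, and each averaged under 5 TPM in both groups.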

How the results depend on the processing

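The count of 8092 calls stayed within 1.5 times under every alternative tried, from 5985 (CCRF-CEM libraries alone) to 9620 (replicate block), with 7110 to 7895 without 1 replicate, 7906 without replicate 3 of both groups, 6986 with a filter of 5 TPM and 8374 with no filter. The block called 7990 of the 8092. The count of 845 changes of at least 1 was 806 to 951 without 1 replicate, but 1485 with a pseudocount of 0.1 and 1643 by limma-voom on recovered reads, and the cause was not tested. The differences from KOPT-K1 and TALL-1 were 5039 and 5337 with the replicate block and 2320 to 3325 and 2779 to 3508 without 1 replicate. Of 188 results for single genes under 20 alternatives, 168 kept their direction and their side of the threshold, and none changed direction. Those that changed side were mostly MT1G, CDKN1A, HSP90B1, SC5D, ribosomal protein genes, H2AC6, ND3, MYB, TCF7 and CD4. With the replicate block, CD4 and SOCS1 gained a call (adjusted p = 0.0346 and 0.0132), as did FDPS and MVD, and with the block in CCRF-CEM libraries alone MYB, TCF7, IL7R and CDKN1A were among those that lost theirs. Small changes of low genes are limited by depth.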

Other observations

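Long non-coding RNAs changed in both directions. Of 1905 tested in CCRF-CEM, 430 rose and 281 fell, where 28.9% of all genes tested rose and 20.9% fell. By at least 1, 52 rose (2.73%) and 59 fell (3.1%). Of 12161 protein-coding genes 170 rose (1.4%) and 473 fell (3.89%) by at least 1. Over all genes tested these shares were 1.66% and 3.54%. LINC02036, which averaged under 1 TPM in the other lines, had 8.08, 6.69 and 9.59 TPM in the BRM014 libraries, against 56.5, 57.0 and 45.8 TPM in the DMSO libraries (-2.58 ± 0.11). LINC00891 (-2.72 ± 0.18), LINC00977 (-2.50 ± 0.22) and LINC01226 (-2.32 ± 0.18) fell, and UBE2D3-AS1 rose by 2.08 ± 0.21. An antisense RNA cannot be told apart here from its partner gene.

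The metallothioneins MT2A and MT1X, which buffer zinc and copper, had changes that were not called. MT2A had 78.4, 78.5 and 49.3 TPM in the BRM014 libraries, against 188, 218 and 95.9 TPM in the DMSO libraries (adjusted p = 0.1), and MT1X had 57.0, 66.6 and 35.2 TPM in the BRM014 libraries, against 115, 127 and 74.6 TPM in the DMSO libraries (adjusted p = 0.39). Every BRM014 library of MT2A and MT1X was below every DMSO library, and replicate 3 was the lowest of each group.

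Genes that fell by at least 1 had a median level of 8.59 TPM and those that rose by at least 1 one of 6.53 TPM, against 13.1 TPM over all genes tested. Mitochondrially encoded mRNAs made up 7.05% to 8.04% of TPM with BRM014 and 5.91% to 7.26% with DMSO. Of 13 such genes 1 rose, or 12 with the replicate block and none after median-ratio rescaling. Of 25 replication-dependent histone genes 2 rose and none fell, or 4 and none with the block.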
